A study of Mus musculus with 24 samples.

Results

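Prefrontal cortex of mice heterozygous for the Dyrk1a allele named I48X (HT) was set against that of wild-type (WT) mice, to ask which transcripts differed whatever drug the HT mice had received. All libraries labelled HT entered, 18 of the 24 in the series, and the other 6 are WT. The HT libraries come in 3 arms of 6, Dyrk1a+/I48X on vehicle, on fluoxetine (a serotonin reuptake inhibitor) and on lithium (a mood stabiliser), and the WT arm received vehicle. Each arm holds 3 females and 3 males of strain C57BL/6J, collected at postnatal day 40. No WT library on either drug is analysed here, so the drug of the fluoxetine and lithium arms is part of their difference from WT. The labels place all WT, all HT vehicle and 5 HT fluoxetine libraries in a batch called P40_L1, and the lithium arm and HT fluoxetine female 3 in P40_L2. The comparison was therefore repeated with the 11 HT and 6 WT libraries of P40_L1. The sources used here state neither the doses nor whether the libraries come from different animals. The p-values therefore rest on the spread among the libraries, which may in part be technical.

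Dyrk1a encodes a kinase that phosphorylates splicing factors, the transcription factor NFAT and cell cycle regulators, and its dose matters for brain growth: loss of a copy in people causes an intellectual disability syndrome with microcephaly and autism, and an extra copy is present in Down syndrome. Its protein binds the adaptor Dcaf7 and promotes entry of cells into quiescence through the DREAM complex. In cortex it is expressed in neurons and glia.

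Levels below are normalised read counts, the deposited values, at a depth of 24133344 to 35940460 recovered reads per library. Differences are log2 fold changes of HT over WT, on log2(value + 1), each HT arm weighing the same, with their standard errors from limma. A gene was called at a Benjamini-Hochberg adjusted p under 0.05 over the 16825 genes tested. Excitatory neuron markers, which define cortical tissue, were all 12 present in every library, with a summed level of 66046 to 106450 in WT and 58733 to 112950 in HT. Some libraries stood apart in markers of neighbouring tissue. A score of 12 olfactory bulb genes (the mean of their log2 deviations) ran from -1.81 to 2.40 in WT, with a median of 0.480, and from -2.80 to 2.61 in HT, with a median of -0.464. The 6 highest libraries on it, called bulb-high, are 5 HT libraries and WT female 2. Apart from these, HT vehicle male 1 held 1379 counts of the striatal receptor Drd2, WT female 1 held 371, and HT vehicle female 1 and HT fluoxetine female 2 held 3407 and 781 of the choroid plexus gene Ttr.

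The gene that carries the allele, Dyrk1a (ENSMUSG00000022897, chromosome 16, 94570010 to 94695517 on GRCm38), stood higher in the HT libraries. WT libraries held 2088, 2169 and 2349 counts (lowest, median, highest), HT vehicle 2254, 2365 and 2431, HT fluoxetine 2353, 2457 and 2589, and HT lithium 2254, 2454 and 2584. All 18 HT libraries lay above the WT mean and 15 above the highest WT library, and the overlap came from WT male 1 and WT female 1, which exceeded 2 and 3 HT libraries. The difference was 0.14 ± 0.03, from 2200 ± 90.8 (SD, n = 6) to 2426 ± 102 (SD, n = 18). Shuffling genotype labels within each sex gave a two-sided exact permutation p of 0.000145 over 48400 arrangements. In P40_L1 alone the difference was 0.13 ± 0.03 (exact permutation p = 0.00085 over 4704 arrangements). Across all genes it was not called (limma adjusted p = 0.391), while DESeq2 on the recovered reads did call it. A count over the whole gene does not read the allele, so genotype is taken from the labels.

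No neighbour of Dyrk1a met the unadjusted threshold. Of 14 tested genes whose positions lie within 1 Mb, 0 had an unadjusted p under 0.05 in limma. The 3 of smallest p were the endosomal sorting gene Vps26c (0.05 ± 0.04), the unannotated Gm41504 (0.39 ± 0.30) and Dop1b (-0.11 ± 0.10).

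**Figure D1:**
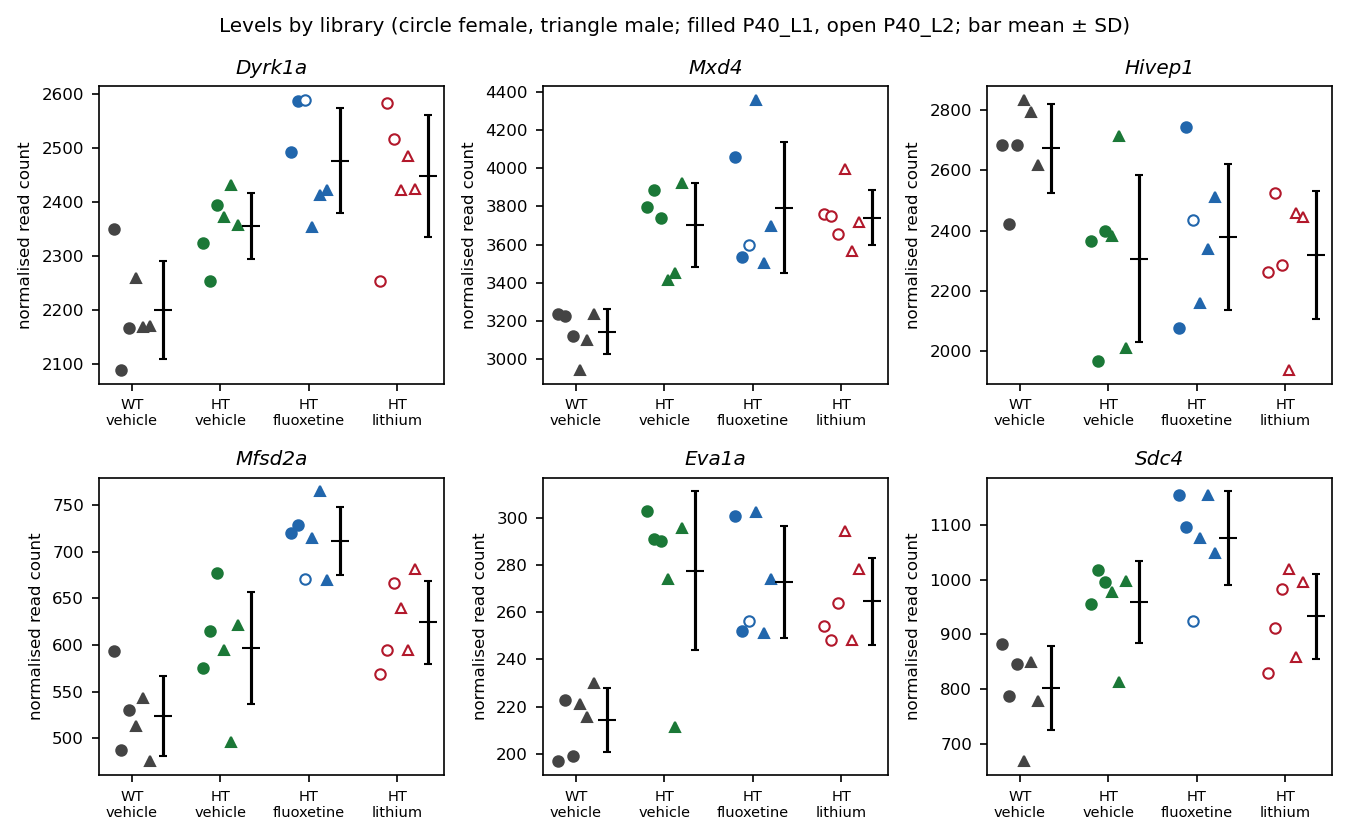
Normalised read counts of 6 genes in each library (vertical axis, not starting at 0) by arm, with mean ± SD beside the points. The 18 HT libraries of Mxd4 all lie above the WT libraries, 15 of 18 do so for Dyrk1a, and HT vehicle male 2 is the low HT library for Eva1a, at 211.

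Over all arms, limma called 0 of 16825 genes (0%), and 475 (2.82%) had an unadjusted p under 0.05, 299 higher (1.78%) and 176 lower (1.05%) in HT, where 5% of the genes tested would be 841. The count test edgeR also called 0, with 456 at an unadjusted p under 0.05, and DESeq2 called 7 (0.0416%): Sdc4, Dyrk1a, Mfsd2a, Eva1a, Mxd4, Gm7334 and Gm12671. With genotype and sex as the only terms, which pools the HT arms, limma called 1 gene (0.00594%), Mxd4 (adjusted p = 0.0434). Against WT, the vehicle arm alone gave 0 calls, with 2.81% of genes at an unadjusted p under 0.05 (1.62% higher, 1.19% lower). The fluoxetine arm gave 1 call (0.00594%), Mfsd2a, with 4.65% at that p (2.54% higher, 2.11% lower), and the lithium arm 0, with 2.63% (1.53% higher, 1.1% lower). Differences described from here on were therefore not called in the main test unless a call is stated.

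The rule then asked for genes shifted the same way in each HT arm, with one sign and an unadjusted p under 0.05 in all 3. It found 43 genes (0.256% of those tested), 34 higher (0.202%) and 9 lower (0.0535%). With a batch term in the fit the count was 20, of which 13 were shared with the 43. All 3 arms are compared with the same 6 WT libraries, so this count carries no test, and at an adjusted p under 0.05 in each arm it is 0. Sizes were small, from 0.08 to 0.93 on the log2 scale with a median of 0.27. Each of the 43 had at least 16 of 18 HT libraries on its side of the WT mean, and 14 had all 18. The rule that chose the genes largely fixed this agreement. In P40_L1, 94 genes (0.558%) were shifted alike in both HT arms, 65 higher (0.386%) and 29 lower (0.172%). Of the 43, 34 were among them. That repeat reuses the WT, HT vehicle and most HT fluoxetine libraries that picked the 43, so the overlap carries no test either. Just inside the threshold lay Cpd and Csf3r, with a largest arm p of 0.0475 and 0.0493. Just outside it were Pik3ip1 (0.0503) and Wrap53 (0.0508).

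Limma's test for any difference among the arms called 4 genes (0.0238%), none of them among the 43, and found 5.1% of all genes at an unadjusted p under 0.05. Mfsd2a and Sdc4 were the 2 of the 43 at that level, and 0 passed adjustment. Both had their highest arm on fluoxetine. The choice of the 43 asked for the same side in every arm, which favours genes whose arms lie alike. How few of the 43 differed among the arms therefore carries no test. The sexes differed in the effect at an unadjusted p under 0.05 for 2, Casq2 and Sesn2, and again none passed adjustment.

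**Figure D2:**
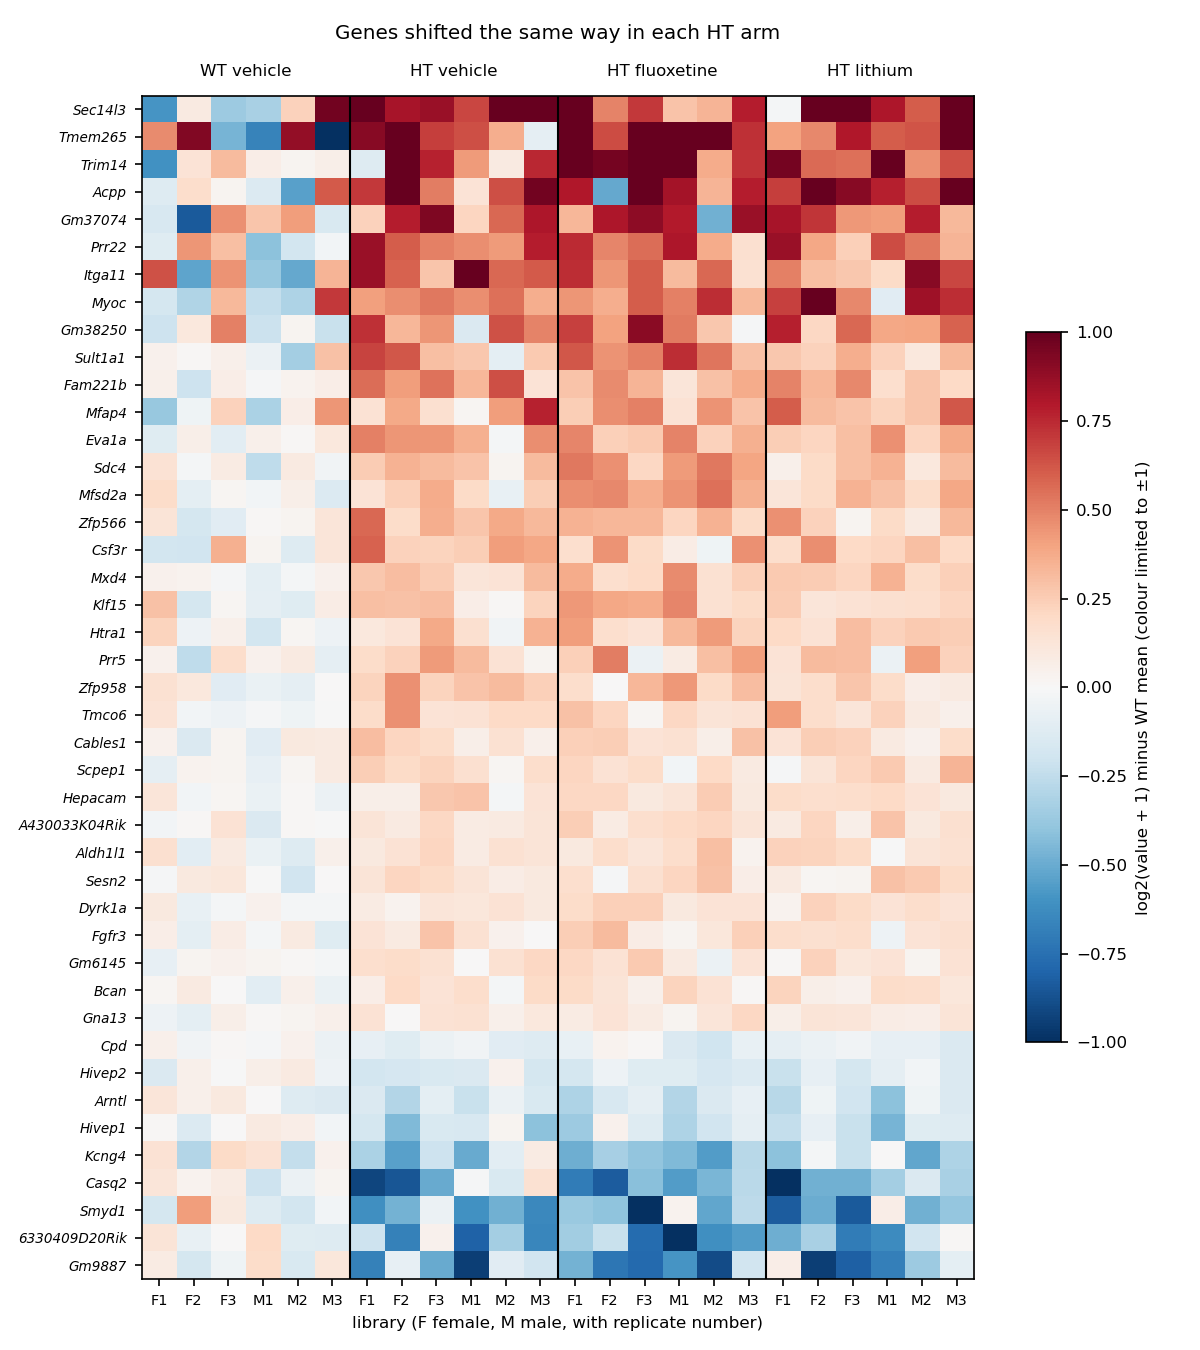
Log2(value + 1) of each of the 43 genes (rows, ordered by their mean difference) in each library (columns, by arm) minus the mean of the 6 WT libraries, with colours limited to ±1. The rows split into 34 higher and 9 lower genes, and the same side is seen in 16 to 18 of the 18 HT libraries. The choice of genes largely fixed that agreement.

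The clearest separation was that of Mxd4 (ENSMUSG00000037235, chromosome 5, 34173883 to 34187720), a transcriptional repressor that pairs with MAX at E-boxes, the DNA sites that MYC also uses. WT libraries held 2943, 3174 and 3239 counts (lowest, median, highest), HT vehicle 3416, 3768 and 3921, HT fluoxetine 3502, 3649 and 4357, and HT lithium 3564, 3734 and 3995. No HT library overlapped the WT range. The difference was 0.25 ± 0.04, and 0.23, 0.27 and 0.25 in the vehicle, fluoxetine and lithium arms (adjusted p = 0.103, limma). In P40_L1 it was 0.26 ± 0.05. Beside Mxd4, its relative Mxd1 stood 0.13 ± 0.05 higher and Myc itself 0.14 ± 0.10 higher. Of the 12 tested genes of the MYC, MAX and MXD network 8 were higher, with a median of 0.04 against -0.005 over all genes.

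Promoters of genes in the set are shown because Mxd4 and the clock gene Arntl, both among the 43, encode proteins that bind the E-box CACGTG. RefSeq promoters on GRCm38.p6, 250 bases before to 50 after the start site, were available for 36 of the 43. An exact E-box, palindromic and so the same on both strands, was present in 5 of the 36 (13.9%), those of Mxd4, Eva1a, Klf15, Gna13 and Gm38250, against 11.1% of 12174 tested genes with a promoter. Capitals mark the E-boxes, and the strand is that of the gene.
Mxd4, chr5:34187661-34187960, minus strand: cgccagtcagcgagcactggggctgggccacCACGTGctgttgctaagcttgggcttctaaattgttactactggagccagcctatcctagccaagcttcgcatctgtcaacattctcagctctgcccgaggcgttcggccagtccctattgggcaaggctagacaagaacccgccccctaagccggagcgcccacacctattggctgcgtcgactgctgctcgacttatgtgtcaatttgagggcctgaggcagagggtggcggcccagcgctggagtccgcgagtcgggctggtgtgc
Eva1a, chr6:82041378-82041677, plus strand: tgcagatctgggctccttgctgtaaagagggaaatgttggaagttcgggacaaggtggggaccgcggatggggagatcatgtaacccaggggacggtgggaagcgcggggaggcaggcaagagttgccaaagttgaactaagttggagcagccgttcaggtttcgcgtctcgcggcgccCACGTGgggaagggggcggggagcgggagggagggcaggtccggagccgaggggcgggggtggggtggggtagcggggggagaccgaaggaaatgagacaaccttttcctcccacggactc
Klf15, chr6:90462326-90462625, plus strand: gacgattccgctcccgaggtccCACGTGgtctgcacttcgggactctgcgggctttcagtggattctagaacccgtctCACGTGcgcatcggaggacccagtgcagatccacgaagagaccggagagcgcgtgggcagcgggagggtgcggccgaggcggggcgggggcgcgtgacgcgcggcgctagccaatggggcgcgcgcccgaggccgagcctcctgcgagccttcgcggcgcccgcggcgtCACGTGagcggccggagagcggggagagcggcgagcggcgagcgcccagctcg
A single E-box stands in the promoters of Mxd4 and Eva1a, and 3 stand in that of Klf15. The 1357 tested genes that hold an E-box had a median difference of -0.002, beside -0.004 over all genes with a promoter. A palindrome at which DYRK1A protein has been found at promoters, TCTCGCGAGA, was present in 119 tested genes (0.978%), with a median of 0.001, and in 0 of the 36. The cAMP response element TGACGTCA was in 412 (3.38%), with a median of -0.008, and in 0 of the 36. These matches are descriptions of letters, not of binding, and the 3 motifs were searched without regard to overlap.

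Fam221b was the other gene whose 18 HT libraries all lay outside the WT range (2 of 16825 genes, 0.0119%; 3 in P40_L1, 0.0178%). It is weakly expressed: WT libraries held 29.3, 35.1 and 35.7 counts, HT vehicle 37.5, 48.0 and 53.7, HT fluoxetine 37.1, 42.5 and 47.7, and HT lithium 38.2, 42.3 and 48.4. The lowest HT library stands barely above the highest WT library. The difference was 0.36 ± 0.08 (adjusted p = 0.391, limma). Fam221b overlaps Tmem8b on the other strand by 175 bases in the annotation, and whether counting used the strand is not given in the sources used here.

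Mfsd2a, the lysophospholipid transporter that carries docosahexaenoic acid across the blood-brain barrier, held 475, 521 and 594 counts in WT, 496, 605 and 677 in HT vehicle, 670, 717 and 765 in HT fluoxetine and 569, 617 and 681 in HT lithium. The fluoxetine libraries all exceeded every WT library, and the other arms overlapped WT at their low end. The difference was 0.29 ± 0.05 over the arms and 0.19, 0.44 and 0.25 within them (adjusted p = 0.194, limma). In the fluoxetine arm alone Mfsd2a rose (adjusted p = 0.022, limma). Sdc4, a heparan sulfate proteoglycan of the cell surface, held 668, 817 and 883 counts in WT, 812, 986 and 1018 in HT vehicle, 924, 1086 and 1155 in HT fluoxetine and 830, 947 and 1019 in HT lithium. Again the fluoxetine arm was highest and clear of WT, and 15 of 18 HT libraries were above the highest WT library (0.30 ± 0.06, adjusted p = 0.206, limma). Eva1a, a membrane protein linked to autophagy, held 197, 218 and 230 in WT, 211, 291 and 303 in HT vehicle, 251, 265 and 303 in HT fluoxetine and 248, 259 and 294 in HT lithium. All HT libraries but HT vehicle male 2 were above the WT range (0.34 ± 0.07, adjusted p = 0.205, limma). The secreted protease Htra1 stood 0.23 ± 0.06 higher, and the matrix genes Mfap4, Itga11 (a collagen receptor) and Myoc (myocilin) 0.35 ± 0.12, 0.54 ± 0.16 and 0.52 ± 0.14 higher. Htra1 lies within the span of Fgfr2 on the other strand, and Myoc overlaps Myocos.

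Of the 14 listed astrocyte markers, Aldh1l1 and Fgfr3 were the 2 among the 43. Hepacam and Bcan, described beside them, are not on that list and were chosen after their values were seen. Hepacam, an adhesion molecule of astrocyte contacts, went from 1937 ± 97.1 to 2155 ± 120 (0.15 ± 0.04). Aldh1l1, the folate enzyme used as an astrocyte marker, went from 1665 ± 137 to 1841 ± 94.0 (0.15 ± 0.04), the growth factor receptor Fgfr3 from 2632 ± 168 to 2898 ± 194 (0.14 ± 0.04), and Bcan, a proteoglycan of perineuronal nets, from 5573 ± 281 to 6085 ± 316 (0.13 ± 0.04). Each had 17 of 18 HT libraries above the WT mean, which their choice for the same side in each arm largely fixed. Over the whole list 0 were called, 5 had an unadjusted p under 0.05 (2.82% of all genes did), 13 were higher (47.2% of all genes were), and the median was 0.10 (0.03 on vehicle, 0.15 on fluoxetine, 0.08 on lithium) beside -0.005 over all genes. The connexin Gjb6 was its member of smallest p (0.27 ± 0.07). Summed, the list ran from 161810 to 176380 counts in WT and from 166570 to 197020 in HT, with no marker at 0 in any library. In bulk tissue, more astrocytes and more of these RNAs per astrocyte cannot be told apart. Meningeal fibroblast markers stood higher beside them in 10 of 12, with a median of 0.22 and 0 at an unadjusted p under 0.05. Their median was 0.05 on vehicle, 0.28 on fluoxetine and 0.26 on lithium. Summed, these markers ran from 5511 to 9888 counts in WT and from 5942 to 16286 in HT, with none of them at 0. The part of these markers in the result was not tested.

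Klf15, a transcription factor induced by glucocorticoids, held 482, 531 and 666 counts in WT, 547, 651 and 676 in HT vehicle, 605, 708 and 765 in HT fluoxetine and 591, 610 and 650 in HT lithium. The ranges overlapped WT in each arm, although all 18 HT libraries were above the WT mean (0.24 ± 0.06, adjusted p = 0.600, limma). Sult1a1, a phenol sulfotransferase, stood 0.37 ± 0.09 higher, and Sesn2, a stress-induced sestrin, 0.14 ± 0.05 higher. Of 15 glucocorticoid-induced genes, of which Sult1a1 alone is among the 43, 11 were higher and 5 had an unadjusted p under 0.05, all higher (1.78% of all genes), with a median of 0.12 (0.04, 0.15 and 0.11 in the arms). The lipid droplet gene Plin4 was 0.74 ± 0.26 higher and Ddit4, an inhibitor of mTOR signalling, 0.23 ± 0.10 higher, while Klf15 itself is not on the list.

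**Figure D3:**
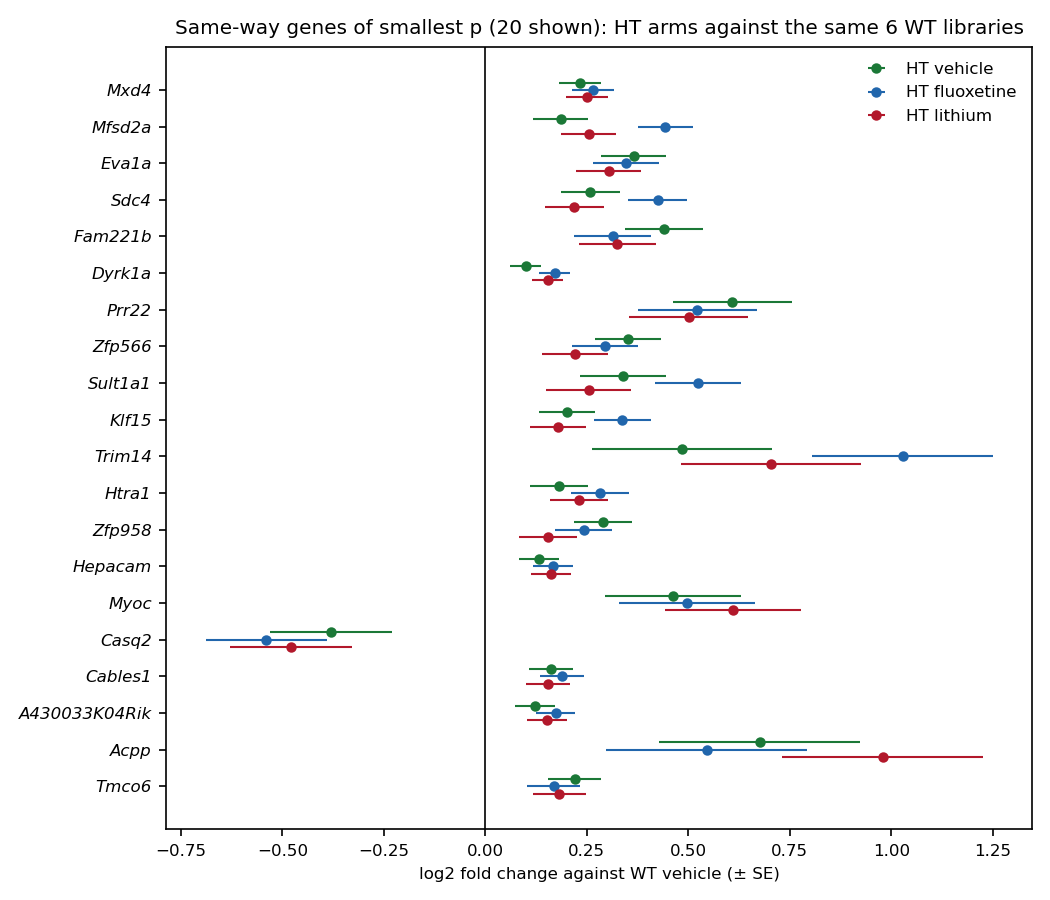
Log2 fold change against WT vehicle (± SE) in each HT arm for the 20 genes of smallest p among those shifted the same way. The 3 arms share the 6 WT libraries, so their agreement in side is what the choice of genes fixed, and Casq2 is the 1 lower gene, between -0.54 and -0.38.

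Among the 9 lower genes were transcription factors and a clock gene. Arntl (Bmal1), the activator of the circadian loop, held 725, 816 and 874 counts in WT, 656, 725 and 771 in HT vehicle, 647, 721 and 756 in HT fluoxetine and 602, 713 and 777 in HT lithium. All 18 HT libraries were below the WT mean and 10 below the lowest WT library (-0.18 ± 0.05, adjusted p = 0.9996, limma). Arntl stood at -0.27 ± 0.07 in females and -0.08 ± 0.07 in males (difference between the sexes, limma unadjusted p = 0.092). The clock repressor Per3 and the output gene Ciart stood 0.20 ± 0.06 and 0.34 ± 0.11 higher. Of 19 clock and output genes 5 had an unadjusted p under 0.05 on the higher side (1.78% of all genes) and 1, Arntl, on the lower (1.05%). The median was 0.05, and 0.01, 0.13 and 0.03 on vehicle, fluoxetine and lithium. The hour of collection is not given in the sources used here, and its part in the result was not tested.

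Hivep1 and Hivep2, paralogous zinc finger factors that bind kappaB-like enhancers, were both in the lower group, and HIVEP2 is a human intellectual disability gene. Hivep1 held 2422, 2684 and 2834 counts in WT, 1969, 2375 and 2714 in HT vehicle, 2078, 2388 and 2745 in HT fluoxetine and 1937, 2365 and 2525 in HT lithium. The highest HT libraries lay inside the WT range, and 11 of 18 were below it (-0.20 ± 0.07, adjusted p = 0.9996, limma). Hivep2 went from 10447 ± 618 to 9559 ± 440 (-0.13 ± 0.04). Casq2, a calcium-binding protein of the sarcoplasmic reticulum, went from 65.8 ± 5.24 to 48.4 ± 11.2 (-0.47 ± 0.12), with 14 of 18 HT libraries below the WT range. Kcng4, a modulatory potassium channel subunit, stood at -0.31 ± 0.09 and the histone methyltransferase gene Smyd1 at -0.47 ± 0.14. Smyd1 overlaps Krcc1 on the other strand by 13643 bases. The other 3 of the 9 are Cpd, 6330409D20Rik and Gm9887.

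The rest of the higher genes are less well described or weakly expressed. Zinc finger genes Zfp566 and Zfp958 stood 0.29 ± 0.07 and 0.23 ± 0.06 higher, with 16 and 14 of 18 HT libraries above the WT range. Zfp566 shares most of its span with Gm26920 on the same strand, so reads between them are uncertain. Cables1, which links CDK5 to ABL, stood 0.17 ± 0.04 higher, Gna13, a G protein alpha subunit, 0.10 ± 0.03 and the mTORC2 component gene Prr5 0.23 ± 0.08. Prr22, with a mean of 21.8 counts in WT and 31.9 in HT, differed by 0.54 ± 0.12. The antiviral signalling gene Trim14, with 8.15 and 14.6, differed by 0.74 ± 0.18, and it overlaps Nans on the other strand by 9852 bases. In all, 11 of the 43 had a mean under 50 counts (17.7% of all genes tested do).

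**Figure D4:**
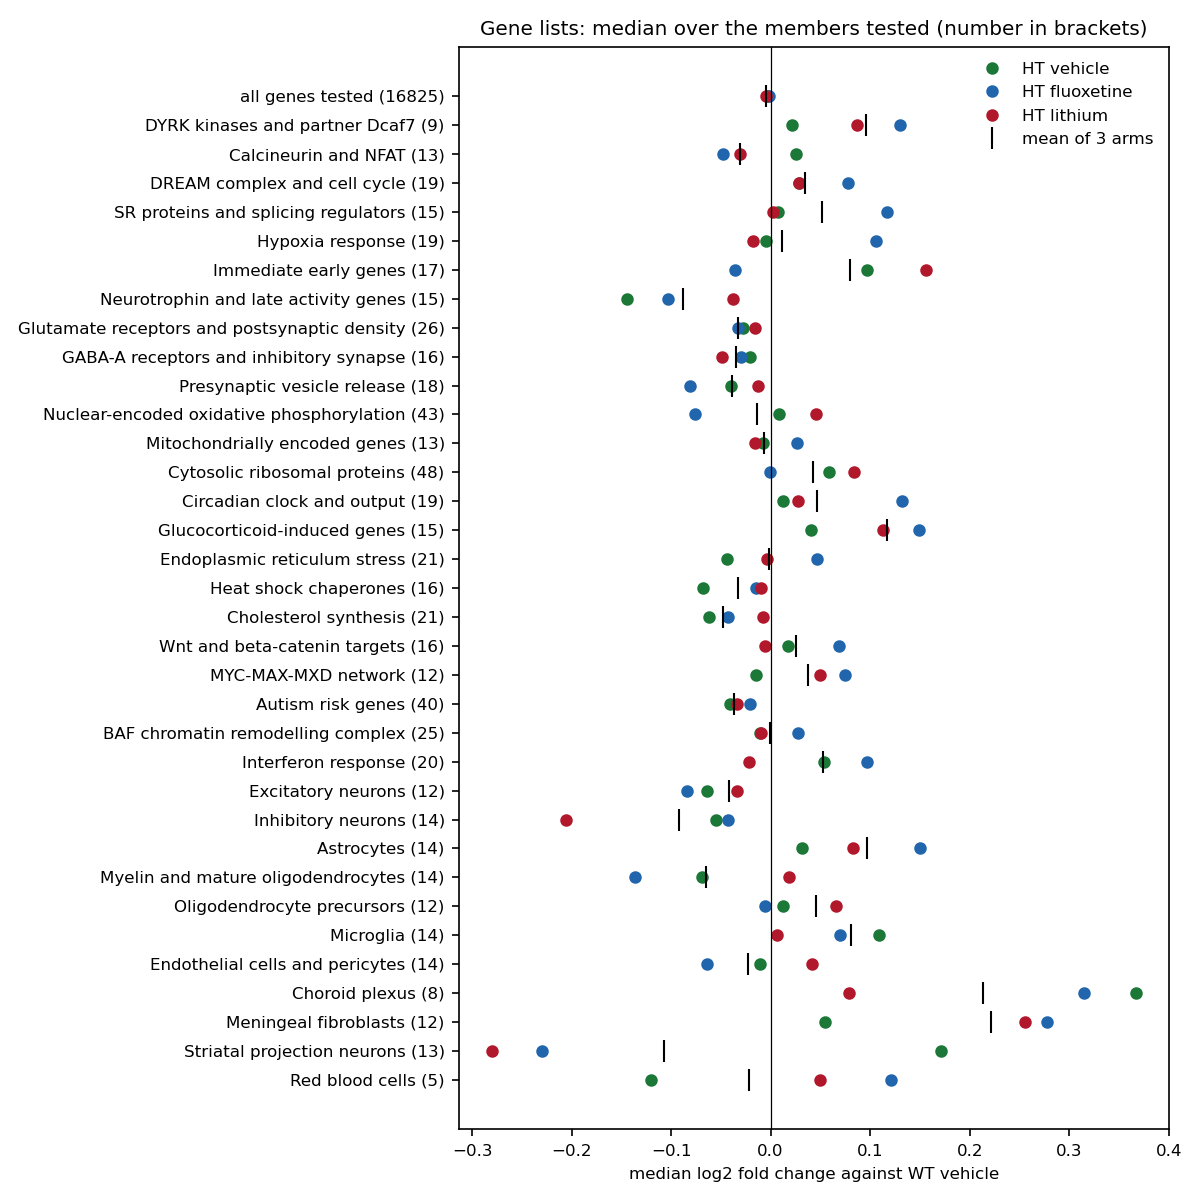
Median log2 fold change of the members of 34 gene lists in each HT arm (points) and over the arms (vertical tick), with all genes tested at the top and the number of members tested in brackets. Most list medians lie within 0.1 of 0. The olfactory bulb list, at -0.63, 0.10 and -0.54 in the vehicle, fluoxetine and lithium arms, is left out to keep the scale.

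Genes tied to DYRK1A's own partners and substrates were among the lists, and limma called 0 members of any of the 35. Of 9 tested genes for DYRK family kinases and their partner, 8 were higher. Their median was 0.10 (0.02 on vehicle, 0.13 on fluoxetine, 0.09 on lithium). An unadjusted p under 0.05 was reached by 3, all higher (1.78% of all genes): Dyrk1a, Dcaf7 (0.10 ± 0.03) and Dyrk1b (0.13 ± 0.06). Of 13 calcineurin and NFAT genes 9 were lower, with a median of -0.03 that turned to 0.02 without the bulb-high libraries, and none had an unadjusted p under 0.05. In the DREAM and cell cycle list 13 of 19 were higher, with a median of 0.04 that turned to -0.02 without the bulb-high libraries. The G1 cyclin Ccnd2 was its member of smallest p (0.23 ± 0.08). With the bulb score as a term, Ccnd2 stood at 0.05, 0.30 and 0.26 on vehicle, fluoxetine and lithium. All 15 splicing regulators, whose family DYRK1A phosphorylates, had positive values over the arms, with a median of 0.05. That median was 0.01 on vehicle, 0.12 on fluoxetine and 0.002 on lithium, and -0.02 in females and 0.13 in males. Late activity genes leaned the other way, 14 of 15 lower with a median of -0.09 (-0.14 on vehicle, -0.10 on fluoxetine, -0.04 on lithium). The list median was -0.16 in females and -0.009 in males. Among the late activity genes, 3 had an unadjusted p under 0.05, all lower (1.05% of all genes). These were the sortilin-related receptor Sorcs3 (-0.15 ± 0.05), the scaffold Homer1 (-0.28 ± 0.11) and the prohormone convertase Pcsk1 (-0.16 ± 0.07). On vehicle, fluoxetine and lithium Sorcs3 stood at -0.14, -0.23 and -0.07, and Homer1 at -0.37, -0.15 and -0.30. Sorcs3 on lithium and Homer1 on fluoxetine did not reach that p. Microglial markers were higher in 12 of 14, with a median of 0.11 on vehicle, 0.07 on fluoxetine and 0.006 on lithium, and C1qc, a complement subunit, stood 0.21 ± 0.06 higher with all 18 HT libraries above the WT mean.

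Olfactory bulb marker content varied widely between libraries and went with many genes. Of those tested, 9640 (57.3%) followed the bulb score at an adjusted p under 0.05 (limma), 4779 with it and 4861 against it. On the score itself the HT mean minus the WT mean was -0.434 (two-sided exact permutation p = 0.615). All 12 of its genes had a negative log2 difference, with a median of -0.47 that turned to 0.12 in edgeR and DESeq2, and their sums overlapped, running from 5493 to 37626 counts in WT and from 3887 to 43732 in HT, and Eomes and Tbx21 were at 0 in at least 1 library.

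With the bulb score as a term in the fit, 9 genes were called over all arms (0.0535%), 8 higher (0.0475%) and 1 lower (0.00594%), and 1939 (11.5%) had an unadjusted p under 0.05. Mxd4 rose by 0.26 ± 0.03 (limma adjusted p = 0.00109) and Hivep1 fell, with a difference of -0.23 ± 0.03 (adjusted p = 0.00607). These 2 were called in each of 24 fits that left out 1 library. The other 7 were Id1 (0.43 ± 0.07), Eva1a (0.35 ± 0.06), Prr22 (0.58 ± 0.10), Mfsd2a (0.30 ± 0.05), Sdc4 (0.31 ± 0.06), the mitochondrial carrier Ucp2 (0.39 ± 0.07) and Rfx5 (0.26 ± 0.05), a regulator of MHC class II genes, and they were called in 6 to 22 of the 24. With the same term edgeR called 4, Mxd4, Hivep1, Id1 and Eva1a. Id1, Ucp2 and Rfx5 lie outside the rule that picked names and are given after their values were seen. Id1, an inhibitor of bHLH factors, held 175, 262 and 292 counts in WT (lowest, median, highest) and 241, 317 and 475 in HT. These ranges overlap, and without the score the difference was 0.38, at 0.18, 0.50 and 0.45 on vehicle, fluoxetine and lithium. With the score the Id1 arms stood at 0.25, 0.50 and 0.52. Without it Id1 stood at 0.14 in females and 0.61 in males (difference between the sexes, limma adjusted p = 0.795). Id1, Ucp2 and Rfx5 were not among the genes shifted the same way in each arm. Dyrk1a stood at 0.14 ± 0.03 in this fit (adjusted p = 0.0866).

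**Figure D5:**
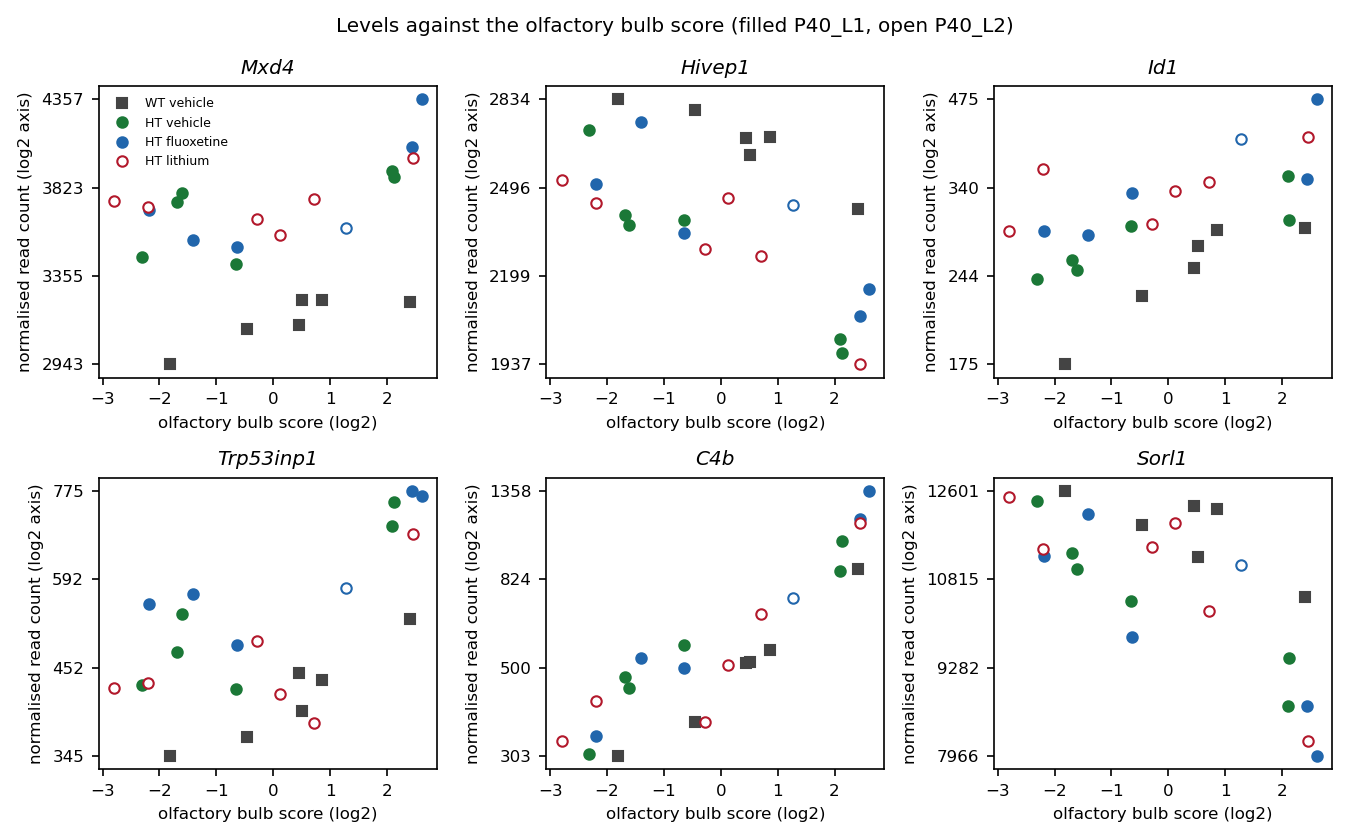
Normalised read count (log2 axis) of 6 genes against the olfactory bulb score of each library, by arm. The 5 bulb-high HT libraries hold the highest HT levels of Mxd4 (3885 to 4357) and the lowest of Hivep1 (1937 to 2159), and WT libraries are squares.

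The repeat within P40_L1 gave 0 calls of 16834 genes without the bulb score (limma; 506, 3.01%, at an unadjusted p under 0.05). Sdc4 (0.37 ± 0.06, adjusted p = 0.0963), Mfsd2a (0.33 ± 0.06), Mxd4 and Eva1a (0.37 ± 0.08) had the smallest p-values among genes shifted alike in both HT arms, followed by Dnaaf2, a dynein assembly factor (0.57, in a span shared with 2 other genes on its strand), and Stat4 (-0.74), a transcription factor of cytokine signalling. In the lithium arm, outside the batch, these last 2 stood at 0.26 and -0.22. With the score as a term 108 genes were called (0.642%), 55 higher (0.327%) and 53 lower (0.315%), with 16.8% at an unadjusted p under 0.05, and edgeR called 99, of which 97 were shared. Leaving out 1 library moved the count from 9 (without WT female 3) to 580 (without HT fluoxetine male 2), with 215 without HT vehicle male 1 and 201 without WT female 2, and in 11 of the 17 omissions it was 67 or fewer, so its size rests on single libraries.

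Called in each of the 17 fits with 1 library of P40_L1 left out were 8 genes, and those not named above were picked after their values were seen. Trp53inp1, a p53-induced autophagy gene, went from 419 ± 64.7 (SD, n = 6) to 586 ± 136 (SD, n = 11), a rise of 0.53 ± 0.06 (limma adjusted p = 0.00147). The complement gene C4b rose by 0.48 ± 0.07 and Ucp2 by 0.47 ± 0.07, Sorl1, the sorting receptor known for Alzheimer's disease risk, fell (-0.25 ± 0.03), and all had an adjusted p of 0.00602. Mxd4, Sdc4, Hivep1 and Rfx5 complete the 8. Without the score Trp53inp1, C4b and Sorl1 stood at 0.48, 0.35 and -0.21 in the batch. In the lithium arm, outside the batch, they stood at 0.15, 0.08 and -0.12. With the score over all arms none of them was called (limma adjusted p = 0.0603, 0.113 and 0.0866). Over all libraries C4b held 303, 514 and 870 counts in WT (lowest, median, highest) and 307, 516 and 1358 in HT, so its call rests on the adjustment for the score. Members of the lists called in this fit were Homer1 (-0.31 ± 0.07), Sorcs3 (-0.20 ± 0.04) and the vesicle priming gene Unc13a (-0.15 ± 0.03) on the lower side. On the higher side were Ciart (0.32 ± 0.07), Sult1a1, Mxd4, the interferon gene Ifit3 (0.31 ± 0.07), the astrocyte genes Gfap (0.26 ± 0.05) and Gja1 (0.21 ± 0.04), and C1qc (0.28 ± 0.06). Apart from Mxd4, these were called in only 4 to 9 of the 17 omissions. Gfap held 2354, 3208 and 5113 counts in WT and 2325, 3316 and 6838 in HT over all libraries, and without the score it stood at 0.15 in the batch, so its call too rests on the adjustment. Unc13a, at 14762, 17648 and 18451 in WT and 12065, 17257 and 18971 in HT, likewise overlapped, and stood at -0.115 without the score.

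The effect of genotype was also compared between the sexes. Limma called 0 of 16825 genes for a difference between them, and 754 (4.48%) had an unadjusted p under 0.05. Smallest p-values were those of the chaperone gene Dnajb5 (-0.28 in females, 0.22 in males), the orphan nuclear receptor Nr4a3 (-0.73 and 0.61) and Errfi1 (-0.26 and 0.18), an inhibitor of EGF receptor signalling, and over both sexes they stood at -0.03, -0.06 and -0.04. The bulb list stood at -1.43 in females and 0.52 in males, and the list of 17 immediate early genes at -0.50 and 0.61. The part of either list in these differences was not tested. For Mxd4 the values were 0.23 in females and 0.27 in males, and for Dyrk1a 0.15 and 0.13.

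Without HT vehicle male 2, the lowest HT library for Mfsd2a, Eva1a and Sdc4, limma called 3 genes over all arms (Mfsd2a, Eva1a and Mxd4), and without HT fluoxetine male 1 it called Mxd4 alone. The same-way count ran from 35 to 77, at 66 without WT female 2 and 77 without WT male 3, and 14 of the 43 genes were kept in all 24 omissions, Mxd4, Mfsd2a, Eva1a, Sdc4, Fam221b, Dyrk1a, Hepacam, Myoc and Aldh1l1 among them. Without the 6 bulb-high libraries 40 genes were shifted the same way, 16 of them shared with the 43, and limma called Mxd4.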

How the data were processed

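Bulk RNA-seq signal was analysed for 24 mouse prefrontal cortex libraries. The authors deposited 1 table of normalized read signal for 18240 genes. The build was GRCm38 and the tools DESeq2 1.19.11, Salmon 0.11.2 and R 3.6.0, per the submitters' processing notes, with no role or order stated. Per the labels' protocols the kit selects mRNA and keeps strand, and the counting setting for strand is not given in the sources used here. Within each library the deposited values are whole multiples of 1 step (100% within 0.01 of a read), so whole reads, or estimates rounded to whole numbers, were recovered for count tests. All pairs of libraries differed by more than counting error (chi-square per gene at least 4.59, and 5.68 within a group).

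The main test was limma 3.58.1 with a trend on mean level (R 4.3.3) on log2(value + 1), for 16825 genes with a mean of at least 10, with 4 arm means and sex. The pseudocount understates the change of low genes. The median standard error was 0.08 for all arms and 0.09 in P40_L1. Alternatives included edgeR 4.0.16 and DESeq2 1.42.0 on recovered reads, the bulb score as a covariate, other filters and scalings, and omissions. The covariate fit by edgeR and its omissions were added after seeing the data. Scripts were tested on simulated data. Symbols and positions come from GENCODE M21, which matched 18227 identifiers. The members and the 35 lists (616 genes, 607 tested) were chosen with earlier results of these data known. Genes were named by a rule: Dyrk1a, the 20 of smallest p among the same-way genes (0 were called), 8 in P40_L1, 3 per list, 3 for sex, those not overlapping WT and 3 near Dyrk1a. The other same-way genes are named as members of that set, after their values were seen. Per-gene depth sets the precision, and arms have 6 libraries.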

Additional observations from a re-analysis of the deposited data

Results flagged for a closer look

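Single libraries lay far from the other 5 of their arm in 11 of 128 arm and gene combinations examined (32 genes), where chance gives about 1 in 20. In HT vehicle male 2, Eva1a stood at 211.42 counts against 274 to 303 in the other 5, and Sdc4 at 812.43 against 955 to 1018. Fam221b was at 29.273 in WT vehicle female 2 (others 33.7 to 35.7). A430033K04Rik reached 467.28 in HT vehicle female 3 (others 429 to 443). Tmco6 reached 271.12 in HT vehicle female 2 (others 217 to 227) and 217.18 in WT vehicle female 1 (others 191 to 197). Near Dyrk1a, Vps26c was at 971.66 in WT vehicle male 1 (others 807 to 863) and Dop1b at 1797.7 in HT lithium male 1 (others 2573 to 2730). That lithium library, 1 of the 6 bulb-high, also held the highest Rfx5 of its arm, 1184.0 (others 775 to 812), and the highest Trp53inp1, 679.83 (others 381 to 491). In WT vehicle female 2, the bulb-high WT library, Rfx5 was at 878.19 (others 701 to 765).

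The 3 HT arms differed in 4 genes (0.0238% of those tested), each at a limma adjusted p of 0.0307. The pseudogene Rpl15-ps3 and Gm28048 were listed at 0 in all 6 lithium libraries, with medians of 52.1 and 111 counts on vehicle and 76.8 and 61.1 on fluoxetine, and in WT vehicle male 1 Gm28048 was listed at 0 too. Both were also listed at 0 in HT fluoxetine female 3, so all 7 libraries of batch P40_L2 were at 0, against 0 and 1 of the 17 of P40_L1. The respiratory complex I genes Ndufs3 and Ndufb6 were lowest on fluoxetine, at 1981 ± 73.3 (SD, n = 6) and 831 ± 36.8, against 2326 ± 74.8 and 962 ± 36.3 on vehicle and 2303 ± 99.4 and 1024 ± 57.7 on lithium. Neither was among the genes shifted the same way.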

How the results depend on the processing

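HT against WT, all arms, called 0 genes, and gave 1 with genotype plus sex, 1 without the bulb-high libraries, 9 with the bulb score as a covariate (4 by edgeR with it), 7 by DESeq2 and 0 to 3 when 1 library was left out. In HT against WT with the bulb score as a covariate, all arms, omissions gave 2 to 14. For HT against WT, batch P40_L1 (0 calls), the counts were 2 without bulb-high libraries, 108 with the covariate, 4 by DESeq2 and 0 to 3 in omissions. For HT against WT with the bulb score as a covariate, batch P40_L1, omissions ran from 9 to 580. For genes shifted the same way in each HT arm (43) the count was 20 with a batch term (13 shared), 111, 121 and 93 without the lithium, fluoxetine or vehicle arm, where only 2 arms need pass, 280 with the covariate (all 43 shared) and 35 to 77 in omissions. For same way in both HT arms of batch P40_L1 (94), it was 266 without bulb-high libraries, 956 with the covariate and 74 to 119 in omissions. For HT libraries outside the WT range (2), it was 1 at a mean of at least 50, 1 after quantile normalization, 4 without the fluoxetine arm, 4 without the vehicle arm, 7 without bulb-high libraries and 2 to 3 in omissions. For difference among the 3 HT arms (4), it was 7 without sex, 1 with batch, 0 with a replicate block, 8 after quantile normalization, 0 without the lithium arm, 0 without the vehicle arm, 0 without the 4 Drd2 or Ttr high libraries, 40 without bulb-high libraries, 15 with the covariate and 0 to 6 in omissions. HT against WT by sex (0) gave 1 with the covariate and 0 to 2 in omissions. Dyrk1a level stayed between 0.12 and 0.16 in omissions and was 0.11 with a batch term. Where no construction is named, the cause was not tested. Of 35 list medians 19 changed sign under at least 1 alternative, among them the bulb list (0.12 in edgeR and DESeq2, 0.03 with the covariate) and, without bulb-high libraries, presynaptic release (0.03) and excitatory neurons (0.04). Of the other 76 results recomputed 0 did. Counts cannot change sign, and many of the genes were chosen for small p-values or the same sign in each arm. Their lack of sign changes is therefore largely fixed by that choice. The median over all genes was 0.002 without bulb-high libraries and 0.0008 in edgeR. No pairing by replicate number was seen in the correlation of deviations. Over 36 same-number pairs it ran from -0.695 to 0.724 (median -0.058, and 0.0188 for other numbers). A pairing weaker than this spread would not show. With the replicate number as a block, 0 genes were called and 43 shifted the same way, 38 of them shared. F and interaction tests were not run in edgeR or DESeq2. All 6 WT libraries are in P40_L1. A median standard error of 0.08 limits what could be called. Only HT fluoxetine female 3 separates lithium from P40_L2.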

Other observations

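Values of a few further groups were not described above. Of 48 genes for cytosolic ribosomal proteins 45 stood higher, with a median of 0.04 (0.06 on vehicle, -0.001 on fluoxetine, 0.08 on lithium) beside -0.005 over all genes, and none had an unadjusted p under 0.05. Rps14 was the member of smallest p (0.10 ± 0.05). Autism risk genes were lower in 34 of 40, with a median of -0.04, and the adhesion molecule gene Dscam (-0.07 ± 0.03) alone had an unadjusted p under 0.05. GABA-A receptor and inhibitory synapse genes were lower in 15 of 16, with a median of -0.03. Inhibitory neuron markers were lower in 13 of 14 (median -0.09), and their median was -0.03 with the bulb score as a term. None of the members of these lists was called by limma.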
